A study of Mus musculus with 10 samples.

Results

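The circadian clock genes *Arntl*, *Clock*, *Per1*, *Per2*, *Per3*, *Cry1*, *Nr1d1*, *Nr1d2*, *Dbp* and *Tef* were followed in intestine of 5 mice with a *Zip14* (*Slc39a14*) knockout (KO) and of 5 wild-type (WT) mice, with 1 RNA-seq library per mouse. The labels call the tissue proximal intestine, which the marker genes of the KO libraries go against, as given below. These 10 genes were taken by symbol from the 35275 gene IDs that were counted in every library. The mice were 8 to 10 weeks old by the sample labels. By the study's methods, *Zip14* was deleted throughout the body of the sequenced KO mice, the WT mice were of the same strain, and both came from heterozygous pairs and included males and females. The series title speaks of an enterocyte-specific deletion instead, and the labels of the samples say no more than knockout, so the group is called KO here. Mice were fed freely under a light and dark cycle and killed between late morning and early afternoon, but neither the time at which the lights came on nor the time and sex of a single mouse is given. Total counts ran from 16729787 to 20819678 per WT library and from 17118742 to 19414828 per KO library.

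The clock of a mammalian cell is a loop of transcription that takes about a day. ARNTL (BMAL1) and CLOCK bind together to E-boxes and switch on the *Per* and *Cry* genes, the nuclear receptor genes *Nr1d1* and *Nr1d2*, and the transcription factor genes *Dbp* and *Tef*. The PER and CRY proteins then block ARNTL and CLOCK, while NR1D1 and NR1D2 repress *Arntl* at ROR elements, so that *Arntl* RNA is high when the RNAs of its targets are low. DBP and TEF act on D-boxes and pass the rhythm on to output genes. In the intestine the loop runs in epithelial, muscle and neural cells and follows feeding as well as light, and a tissue taken at one time of day shows 1 point of it.

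The libraries were first checked against their labels. *Slc39a14*, the targeted gene, had 260.4 ± 62.5 CPM in WT and 102 ± 32.9 CPM in KO libraries (SD, n = 5 each), with a log2 fold change of -1.35 (standard error (SE) 0.22, adjusted p = 0.00184, edgeR). CPM are counts scaled to a common library total, after the TMM correction of that total. The region of the intestine went against the label in the KO group. By the paper, *Zip14* expression is highest in the proximal part and falls farther along the gut. The lower *Slc39a14* therefore cannot be told apart from a difference of region and does not check the genotype. Over all tested genes 16% were called higher and 13.9% lower in KO libraries. All 6 of the ileal markers were called higher there, with summed levels from 220 to 302 CPM in WT and from 3347 to 10609 CPM in KO libraries. *Fabp6*, the ileal bile acid binding protein, had at most 1.74 CPM in a WT library and at least 2307 CPM in a KO library. *Gata4*, which marks the proximal part, had at least 160.3 CPM in WT and at most 59.4 CPM in KO libraries, and 4 of the 6 proximal markers were called lower, with sums from 4772 to 11849 CPM in WT and from 91.1 to 638 CPM in KO libraries. Smooth muscle markers were also higher, 10 of 10, with sums from 1220 to 2182 CPM in WT and from 3276 to 9979 CPM in KO libraries. *Myh11*, the smooth muscle myosin, rose by 1.31 on the log2 scale (SE 0.30, adjusted p = 0.00900, edgeR). All 7 markers of neurons and glia were higher (15.2 to 28.4 against 31.8 to 94.6 CPM), as were 5 of 10 epithelial markers, *Epcam* among them with a log2 fold change of 0.49 (SE 0.15, adjusted p = 0.0339, edgeR), while 1 was lower (13746 to 15613 against 14734 to 21008 CPM). Of 7 immune markers 1 was lower (933 to 1552 against 484 to 1570.0 CPM). None of the 5 markers of exocrine pancreas had enough counts to be tested, and their sums stayed at or below 4.09 CPM. The ileal, proximal, smooth muscle and neural sums separate the same libraries as the genotype does, while the epithelial and immune sums overlap, so region, muscle content and genotype cannot be told apart in the comparisons below. Nor can fewer cells of a type be told from less RNA per cell in these bulk samples. Within the KO group, replicates 4 and 5 had the highest ileal sums (10609 and 9133 CPM) and the lowest proximal sums (109.5 and 91.1 CPM), and the tests of single genes and of pairs of clock genes were therefore repeated without these 2 libraries, a choice made after the values were seen.

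Short stretches of the promoters are shown first, because they hold letters of the elements to which the background above refers. *Clock*, *Nr1d2* and *Dbp* had no match in their windows. RefSeq (GRCm38.p6) gave 14 promoter windows for 9 of the 10 genes, each from 250 bases before to 50 bases after a gene start, and none for *Per2*. Each line gives 30 bases on the strand of the gene, and the capitals mark the matched letters. *Cry1* and *Nr1d1* have the E-prime box on the other strand, so that its letters CACGTT read AACGTG here.
*Cry1*, E-box, chr10:85185097-85185126, minus strand: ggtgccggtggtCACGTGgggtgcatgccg
*Cry1*, E-prime box, chr10:85185116-85185145, minus strand: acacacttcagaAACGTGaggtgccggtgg
*Per1*, E-box, chr11:69098771-69098800, plus strand: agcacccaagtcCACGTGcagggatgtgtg
*Tef*, E-box of the first window, chr15:81802534-81802563, plus strand: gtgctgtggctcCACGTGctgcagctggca
*Tef*, E-box of another window, chr15:81811264-81811293, plus strand: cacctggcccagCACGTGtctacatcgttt
*Nr1d1*, E-prime box, chr11:98775388-98775417, minus strand: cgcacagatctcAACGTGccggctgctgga
*Per3*, upstream D-box, chr4:151044852-151044881, minus strand: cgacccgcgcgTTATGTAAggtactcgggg
*Per3*, downstream D-box, chr4:151044805-151044834, minus strand: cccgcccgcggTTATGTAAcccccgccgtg
*Arntl*, ROR element, chr7:113207529-113207558, plus strand: gaaggcagaaagTAGGTCAgggacggaggt

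The E-box CACGTG was found on either strand in 4 windows of *Cry1*, *Per1* and *Tef*, against 7.15% of all 32851 windows. The E-prime box CACGTT was in 2 windows (*Cry1* and *Nr1d1*), against 4.68% of all windows. Both D-boxes (TTATGTAA) lay in 1 window of *Per3*, with their first bases at -205 and -158 from the gene start, and 0.938% of all windows held one. Of the ROR elements TAGGTCA and TGGGTCA, 1 was found, in *Arntl*, with its first base at 31, where the gene start is base 1, and 6.45% of all windows held one. The cAMP response element TGACGTCA was in 0 of these windows and in 1.79% of all windows. The letters of one motif do not occur inside another. A match is a match of letters only, and elements farther from the gene start lie outside these windows.

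*Arntl* (ENSMUSG00000055116, GRCm38 chr7:113207465-113314126, plus strand, 22 blocks of exons) encodes BMAL1, the positive arm of the loop that carries the ROR element shown above. It had 19.1, 11.3, 15.6, 17.1 and 11.3 CPM in WT replicates 1 to 5 and 22.6, 19.1, 13.9, 29.2 and 44.2 CPM in KO replicates 1 to 5. KO replicates 1, 4 and 5 were above every WT library and KO replicate 2 level with the highest of them, while KO replicate 3 lay inside the WT range. The means were 14.9 ± 3.50 CPM in WT and 25.8 ± 11.7 CPM in KO libraries (SD, n = 5 each). The log2 fold change was 0.79 with a 95% interval from 0.17 to 1.42, which missed the threshold of 0.05 over all genes (SE 0.29, p = 0.0176, adjusted p = 0.0558, edgeR; exact permutation p = 0.0635). Its call turned on the settings, with an adjusted p of 0.0310 in DESeq2, of 0.0288 with scaling to library size only and of 0.0263 without KO replicate 3. Leaving out KO replicate 5 alone lowered the log2 fold change to 0.51 (adjusted p = 0.119, edgeR), and without KO replicates 4 and 5 it was 0.32 (adjusted p = 0.312).

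*Clock* (ENSMUSG00000029238, chr5:76209868-76304792, minus strand, 24 blocks) encodes the partner of BMAL1, and its RNA is known to swing little over the day. It had 84.5, 90.9, 64.7, 62.9 and 67.2 CPM in WT replicates 1 to 5, and 56.8, 55.7, 60.9, 38.0 and 45.2 CPM in KO replicates 1 to 5. Every KO library was below every WT library, though KO replicate 3 and WT replicate 4 lay close together, and KO replicates 4 and 5 were the lowest. *Clock* fell by 0.53 on the log2 scale, from 74.0 ± 12.8 to 51.3 ± 9.43 CPM (SD, n = 5 each; SE 0.15, adjusted p = 0.0237, edgeR; exact permutation p = 0.00794, the smallest that 5 against 5 allows). This call was lost without WT replicate 1 (adjusted p = 0.0604), without WT replicate 2 (0.0625), and without KO replicates 4 and 5 (log2 fold change -0.36, adjusted p = 0.0853). With the smooth muscle score, the mean log2 CPM of the muscle markers, in the model, the sign turned to 0.08 (adjusted p = 0.908). The libraries of KO and WT mice were separate in that score too.

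**Figure D1:**
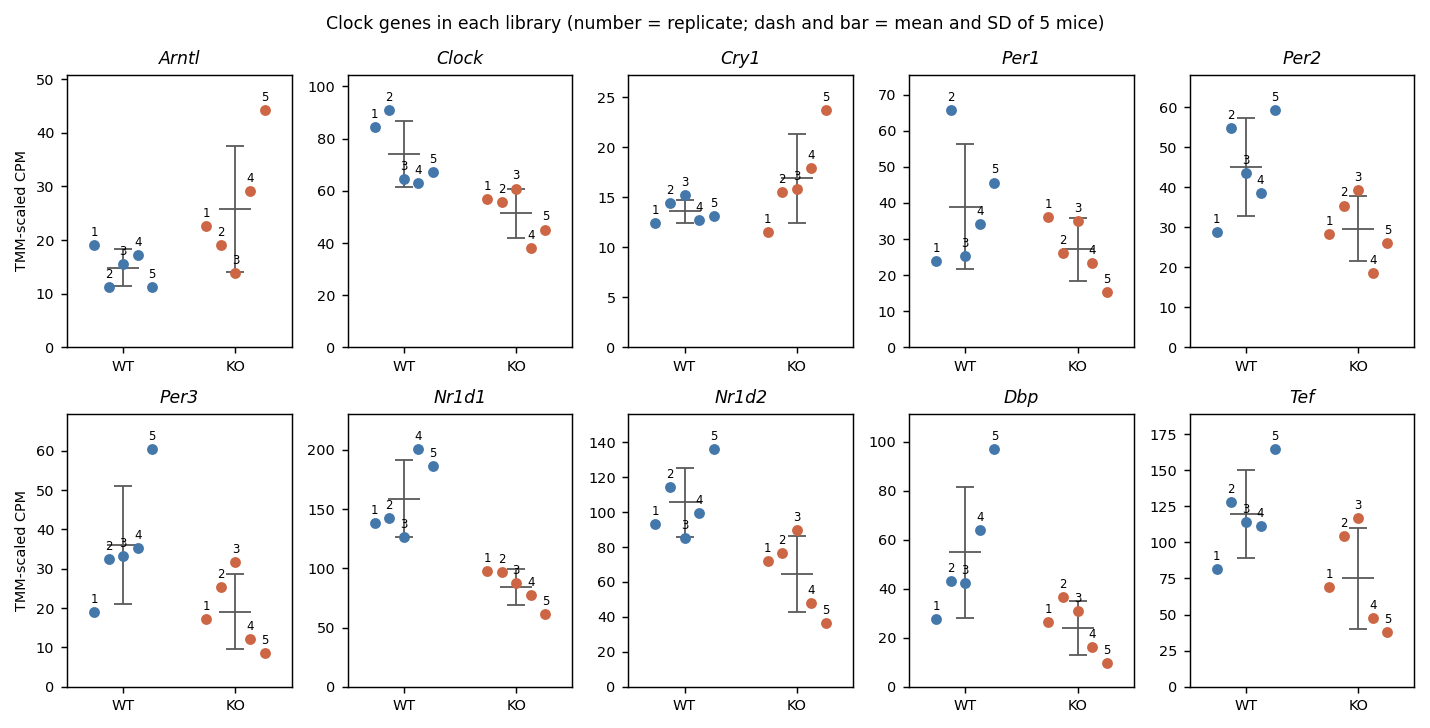
TMM-scaled CPM of the 10 clock genes in each library, with 1 panel per gene, WT in blue and KO in orange, numbers for the replicates, and a dash and bar for the mean and SD of 5 mice. KO libraries lie below all WT libraries for *Clock* and *Nr1d1*, and KO replicate 5 has the highest *Arntl* (44.2 CPM) and the lowest *Dbp* (9.50 CPM).

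*Nr1d1* and *Nr1d2* encode the REV-ERB receptors, repressors that bind heme and close the loop onto *Arntl*. *Nr1d1* (ENSMUSG00000020889, chr11:98767932-98775333, minus strand, 8 blocks) had 138, 143, 127, 200.3 and 186 CPM in WT replicates 1 to 5 and 97.5, 97.2, 87.6, 77.1 and 61.7 CPM in KO replicates 1 to 5. The groups were clearly separate, with 127 CPM in the lowest WT and 97.5 CPM in the highest KO library, and *Nr1d1* had the lowest p of the 10 genes. The fall was 0.91 on the log2 scale, from 159 ± 32.4 to 84.2 ± 15.1 CPM (SD, n = 5 each; SE 0.16, 95% interval from -1.27 to -0.55, adjusted p = 0.00292, edgeR; exact permutation p = 0.00794). *Nr1d1* remained called without any single library, with log2 fold changes from -0.99 to -0.82, and without KO replicates 4 and 5 together (-0.75, adjusted p = 0.0126). Its exons share 263 bases with *Thra*, the thyroid hormone receptor gene on the opposite strand, and the handling of strand in counting is not known. *Thra* fell too, by 0.46 on the log2 scale (SE 0.15, adjusted p = 0.0403, edgeR), with 111 ± 12.5 CPM in WT and 80.7 ± 18.7 CPM in KO libraries.

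*Nr1d2* (ENSMUSG00000021775, chr14:18204054-18239127, minus strand, 8 blocks) had 93.3, 114, 85.3, 99.2 and 136 CPM in WT replicates 1 to 5 and 72.0, 76.3, 89.8, 47.7 and 36.3 CPM in KO replicates 1 to 5. KO replicate 3 lay above WT replicate 3, and the other 4 KO libraries were below all WT libraries. The log2 fold change was -0.71, from 106 ± 19.96 to 64.4 ± 21.9 CPM (SD, n = 5 each; SE 0.23, adjusted p = 0.0384, edgeR; exact permutation p = 0.0159). This call did not survive the loss of WT replicate 1 (0.0565), 2 (0.0798), 4 (0.0514) or 5 (0.0835) or of KO replicate 4 (0.0797), all adjusted p-values of edgeR. Without KO replicates 4 and 5 the log2 fold change was -0.41 (adjusted p = 0.0841).

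*Dbp* and *Tef* encode related transcription factors of the PAR bZIP family, which bind D-boxes such as those of *Per3*. *Dbp* (ENSMUSG00000059824, chr7:45705088-45710203, plus strand, 4 blocks), a direct target of BMAL1 and CLOCK with one of the deepest daily swings of any RNA, had 27.8, 43.2, 42.4, 64.1 and 96.8 CPM in WT replicates 1 to 5 and 26.4, 36.8, 30.9, 16.2 and 9.50 CPM in KO replicates 1 to 5. WT replicate 1 lay among the KO libraries, WT replicate 5 stood above all others, and KO replicates 4 and 5 below all others. The means were 54.9 ± 26.8 and 23.9 ± 11.1 CPM (SD, n = 5 each). Its log2 fold change of -1.20 was the largest in size of the 10 genes and had the largest standard error (SE 0.39, 95% interval from -2.06 to -0.33, adjusted p = 0.0407, edgeR; exact permutation p = 0.0238). It was called without WT replicate 1 (0.0316) and without KO replicate 2 (0.0311), and lost when any other single library was left out, with adjusted p-values from 0.0504 to 0.0954. Robust estimation (adjusted p = 0.0536, edgeR) and a replicate block (0.127) ended the call of *Dbp* as well. Without KO replicates 4 and 5 the log2 fold change was -0.81 (adjusted p = 0.131). *Dbp* shares 539 exon bases with *Sphk2* on the opposite strand, which fell by 0.48 (SE 0.12, adjusted p = 0.0131, edgeR) from 113 ± 19.2 to 81.3 ± 6.54 CPM.

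*Tef* (ENSMUSG00000022389, chr15:81802421-81826863, plus strand, 10 blocks) had 81.3, 128, 114, 111 and 164 CPM in WT replicates 1 to 5 and 68.8, 105, 117, 47.4 and 37.6 CPM in KO replicates 1 to 5. KO replicates 2 and 3 lay within the WT range and KO replicates 4 and 5 far below it. Its log2 fold change of -0.67 missed the threshold, with 119.7 ± 30.2 CPM in WT and 75.04 ± 34.7 CPM in KO libraries (SD, n = 5 each; SE 0.30, adjusted p = 0.112, edgeR; exact permutation p = 0.0635). *Tef* passed only without KO replicate 3 (-0.90, adjusted p = 0.0493), and without KO replicates 4 and 5 its value was -0.31 (0.358). An overlapping gene on the other strand, *Gm17597*, had 3 counts over the WT and 6 over the KO libraries.

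The *Per* genes encode the negative arm of the loop. *Per1* (ENSMUSG00000020893, chr11:69095217-69109960, plus strand, 24 blocks), which also responds within the hour to glucocorticoids and cAMP, had 23.8, 65.7, 25.4, 34.1 and 45.7 CPM in WT replicates 1 to 5 and 36.1, 26.0, 35.1, 23.3 and 15.4 CPM in KO replicates 1 to 5. WT replicate 2 was highest by a wide margin, and the rest of the groups overlapped. The log2 fold change was -0.52 (SE 0.31, 95% interval from -1.19 to 0.15, adjusted p = 0.213, edgeR; exact permutation p = 0.246), with means of 38.9 ± 17.3 and 27.2 ± 8.64 CPM (SD, n = 5 each). Leaving out WT replicate 2 alone moved it to -0.25 (adjusted p = 0.524), and without KO replicates 4 and 5 it was -0.26 (adjusted p = 0.578).

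*Per2* (ENSMUSG00000055866, chr1:91415982-91459324, minus strand, 24 blocks) had 28.96, 54.9, 43.5, 38.5 and 59.3 CPM in WT replicates 1 to 5 and 28.3, 35.5, 39.4, 18.6 and 26.2 CPM in KO replicates 1 to 5. WT replicates 1 and 4 lay within the range of the KO libraries, and KO replicate 4 was the lowest of all. The log2 fold change of -0.61 missed the threshold, from 45.03 ± 12.3 to 29.6 ± 8.12 CPM (SD, n = 5 each; SE 0.23, adjusted p = 0.0660, edgeR; exact permutation p = 0.0556). It passed in DESeq2 (adjusted p = 0.0381), without WT replicate 1 (0.0369) and without KO replicate 3 (0.0442), and stood at -0.39 (0.233) without KO replicates 4 and 5. *Per3* (ENSMUSG00000028957, chr4:151003652-151044665, minus strand, 23 blocks), which is not needed for the rhythm itself, had 19.0, 32.4, 33.1, 35.3 and 60.4 CPM in WT replicates 1 to 5 and 17.2, 25.4, 31.8, 12.2 and 8.60 CPM in KO replicates 1 to 5. Again WT replicate 1 lay among the KO libraries, and WT replicate 5 and KO replicates 4 and 5 were at the ends. *Per3* differed by -0.92 on the log2 scale, with 36.0 ± 15.02 CPM in WT and 19.1 ± 9.53 CPM in KO libraries (SD, n = 5 each; SE 0.37, adjusted p = 0.0794, edgeR; exact permutation p = 0.0476). It passed in DESeq2 (0.0349) and without KO replicate 3 (0.0385). The value was -0.54 (adjusted p = 0.266) without KO replicates 4 and 5.

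*Cry1* (ENSMUSG00000020038, chr10:85131700-85185064, minus strand, 13 blocks) encodes the strongest repressor of BMAL1 and CLOCK and is known to peak later than the *Per* genes. It had 12.5, 14.4, 15.2, 12.7 and 13.2 CPM in WT replicates 1 to 5 and 11.5, 15.6, 15.8, 17.9 and 23.7 CPM in KO replicates 1 to 5. The WT libraries were close together, with KO replicate 1 below and the other 4 KO libraries above all of them. The log2 fold change was 0.31 (SE 0.17, 95% interval from -0.06 to 0.69, adjusted p = 0.179, edgeR; exact permutation p = 0.167), with means of 13.6 ± 1.18 and 16.9 ± 4.46 CPM (SD, n = 5 each). *Cry1* passed only without KO replicate 1 (0.42, adjusted p = 0.0439). Without KO replicate 5 its log2 fold change was 0.16 (0.397), and without KO replicates 4 and 5 it was 0.07 (0.715).

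Over the 10 genes, all of which had enough counts for the test, 4 were called lower in KO libraries (*Clock*, *Nr1d1*, *Nr1d2* and *Dbp*) and 0 higher by edgeR, with 8 at an unadjusted p under 0.05. Of all 15610 genes tested, 13.9% were called lower and 16% higher in edgeR, 29.9% in either direction, and 43.3% had an unadjusted p under 0.05. DESeq2 called 6 of the clock genes lower and *Arntl* higher, against 13.2% lower and 14.9% higher of the 19888 genes to which it gave an adjusted p. The median log2 fold change was -0.64 over the clock genes and 0.03 over all genes. Groups did not overlap for *Clock* and *Nr1d1*, with KO below WT, as for 10.8% of all tested genes, while KO was above WT for 0 of them, against 10.2%. Higher genes made up 53.45% of all calls after TMM scaling and 69.42% with scaling to library size only, which moved the median of all genes to 0.15. Under that scaling *Arntl* was called higher and *Nr1d1* lower, and *Clock* (-0.40, adjusted p = 0.0532), *Nr1d2* (-0.58, 0.0810) and *Dbp* (-1.07, 0.0624) were not called. Without KO replicates 4 and 5 only *Nr1d1* was called, where 11.6% of all genes were called lower. With the smooth muscle score in the model none of the 10 genes was called, but only 12 of all genes (0.0769%) were, so this loss is not particular to the clock genes. The log2 fold changes were then -0.92 for *Nr1d1* (adjusted p = 0.246), -1.24 for *Dbp* (0.516), -1.06 for *Per3* (0.581) and 0.66 for *Arntl* (0.666). They were nearer to 0 than before for *Arntl* and also for *Clock* (0.08), *Per1* (-0.11), *Per2* (-0.24), *Cry1* (0.15), *Nr1d2* (-0.48) and *Tef* (-0.46). With the epithelial score only *Nr1d1* was called (-0.89, adjusted p = 0.0183), where 24.8% of all genes were called, and the values of *Clock* (-0.53, 0.0899), *Nr1d2* (-0.54, 0.211) and *Dbp* (-0.92, 0.206) no longer passed.

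**Figure D2:**
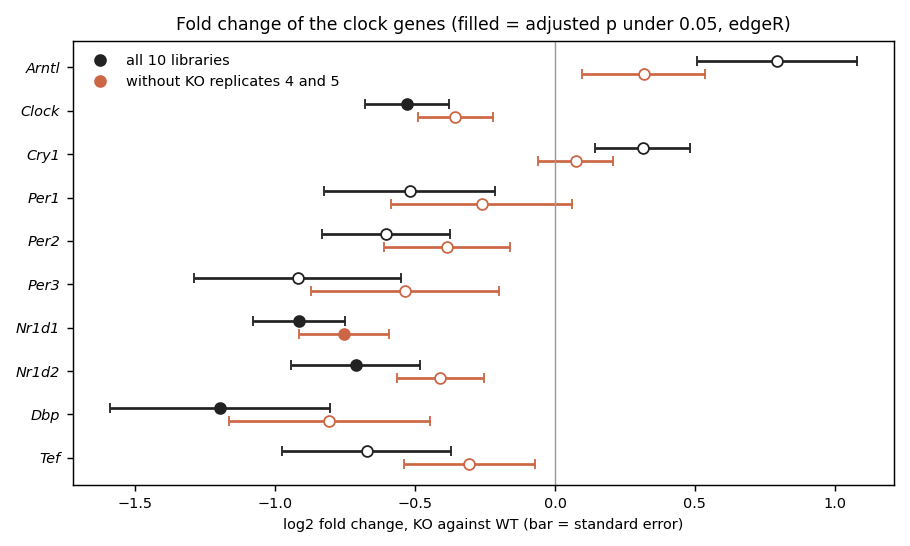
Log2 fold change of each clock gene, KO against WT, with its standard error, over all 10 libraries (black) and without KO replicates 4 and 5 (orange), filled where the adjusted p of edgeR is under 0.05. *Nr1d1* is filled in both (-0.91 and -0.75), and every value lies nearer to 0 without these libraries.

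Levels of different genes were compared per kb of exon, as TMM-scaled CPM divided by the merged exon length of GENCODE M21. *Nr1d1* led in both groups, with 51.6 ± 10.5 CPM per kb in WT and 27.4 ± 4.91 in KO libraries (SD, n = 5 each). In WT libraries it was followed by *Nr1d2* (19.5 ± 3.69), *Dbp* (18.3 ± 8.95), *Tef* (15.2 ± 3.84), *Per2* (7.69 ± 2.10), *Per1* (6.92 ± 3.07), *Clock* (5.39 ± 0.930), *Cry1* (4.07 ± 0.352), *Per3* (3.75 ± 1.56) and *Arntl* (1.98 ± 0.465). Only between *Nr1d1* and *Nr1d2*, *Tef* and *Per2*, and *Clock* and *Cry1* did neighbours in this order not overlap. KO libraries gave, after *Nr1d1*, *Nr1d2* (11.9 ± 4.04), *Tef* (9.54 ± 4.41), *Dbp* (8.00 ± 3.69), *Cry1* (5.06 ± 1.34), *Per2* (5.05 ± 1.39), *Per1* (4.82 ± 1.53), *Clock* (3.74 ± 0.687), *Arntl* (3.43 ± 1.56) and *Per3* (1.98 ± 0.992), and all neighbours but the first pair overlapped. *Arntl* was thus last of the 10 genes in WT and next to last in KO libraries.

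The clock genes also varied widely between mice of the same group. In WT libraries the SD of log2 CPM was 0.68 for *Dbp*, 0.61 for *Per1* and 0.59 for *Per3*, at percentiles 94.4, 92.5 and 91.9 of all tested genes, whose median SD was 0.19. *Cry1* was the steadiest, with an SD of 0.12 (percentile 25.6). In KO libraries the median SD of all genes was 0.31, and *Dbp* (0.79, percentile 90.4), *Per3* (0.76, percentile 89.6), *Tef* (0.71, percentile 87.5) and *Arntl* (0.63, percentile 84.1) varied most, while *Nr1d1* (0.28, percentile 43.5) and *Clock* (0.28, percentile 44.3) stayed below the median. The same mice stood at the ends for gene after gene. Among the 7 genes *Per1*, *Per2*, *Per3*, *Nr1d1*, *Nr1d2*, *Dbp* and *Tef*, put together after their values were seen, WT replicate 5 was the highest WT library for 5 and WT replicate 1 the lowest for 5, while WT replicate 1 had the highest *Arntl* of its group. KO replicate 5 was the lowest KO library for 6 of the 7 and the highest for *Arntl* and *Cry1*. KO replicate 3 was highest for 4 of the 7 and lowest for *Arntl*.

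Ratios of 2 genes within a library do not depend on scaling and set the target genes against *Arntl* directly. *Nr1d1* counts were 7.24, 12.6, 8.13, 11.7 and 16.4 times *Arntl* counts in WT replicates 1 to 5, and 4.31, 5.08, 6.32, 2.64 and 1.40 times in KO replicates 1 to 5, without overlap. The ratio of *Dbp* to *Arntl* was 1.45, 3.83, 2.72, 3.74 and 8.55 in WT and 1.16, 1.92, 2.23, 0.553 and 0.215 in KO replicates 1 to 5. In KO replicates 4 and 5, *Arntl* thus had more counts than *Dbp*, which was so in no other library. These counts are not divided by exon length, so a ratio of 1 does not mean equal levels. The merged exons have 7523 bases for *Arntl*, 2993 for *Dbp*, 5856 for *Per2* and 9608 for *Per3*. *Per3* had fewer counts than *Arntl* in WT replicate 1 (0.997) and in KO replicates 1 (0.761), 4 (0.418) and 5 (0.195), and *Per2* in KO replicates 4 (0.638) and 5 (0.592). *Tef* to *Arntl* ranged from 4.26 to 14.5 in WT and from 0.851 to 8.41 in KO libraries. *Cry1* to *Nr1d1*, a ratio of a late to an earlier gene of the loop, ranged from 0.0637 to 0.120 in WT and from 0.118 to 0.384 in KO libraries, with WT replicate 3 just above KO replicate 1. These ratios are given as a description, with no test.

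The relations among the genes were read from the spread within the groups, so that no difference in group means between KO and WT entered. The time of each mouse is not known. Tissue markers also varied within a group, with ileal sums from 3347 to 10609 CPM and smooth muscle sums from 3276 to 9979 CPM in KO libraries. Phase therefore cannot be told apart from region or muscle content in these correlations. For each gene the group mean of log2 CPM was subtracted, and the 45 pairs of genes were correlated over the 10 libraries, with an exact permutation of the libraries within the groups and adjustment over the 45 pairs. Of these, 18 pairs had an adjusted p under 0.05, 11 with a positive and 7 with a negative r. How many pairs of other genes would pass in the same libraries was not measured, so this count is not particular to the clock genes. All 21 pairs among *Per1*, *Per2*, *Per3*, *Nr1d1*, *Nr1d2*, *Dbp* and *Tef* were positive, with r from 0.35 (*Per2* and *Nr1d1*) to 0.97 (*Per3* and *Tef*), a median of 0.73, and 11 past the threshold. These 7 genes were put together after their values were seen, so that choice may have set part of the shared sign. Without KO replicates 4 and 5 all 21 pairs were again positive, with r from 0.14 to 0.95 and a median of 0.69. The closest were *Per3* and *Tef* (adjusted p = 0.00893, Spearman's rho 0.87, permutation p = 0.00806, r = 0.94 with permutation p = 0.0139 without the 2 libraries farthest from the median of *Per3*) and *Per3* and *Dbp* (r = 0.95, adjusted p = 0.00893, rho 0.95, permutation p = 5.56e-04, r = 0.97 with permutation p = 0.00278 without the 2 farthest). Their r were 0.95 (permutation p = 0.00833) and 0.89 (permutation p = 0.0167) without KO replicates 4 and 5. Mice with much *Per3* RNA for their group were thus those with much *Tef* and *Dbp* RNA.

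*Arntl* ran the other way. Its r with these 7 genes lay between -0.95 and -0.54, with a median of -0.81, and 6 of the 7 passed the threshold. Among 11548 genes with a mean of at least 5 CPM, *Per1* was 136th, *Dbp* 164th, *Per2* 216th and *Nr1d1* 1315th from the negative end. Many genes outside the clock thus opposed *Arntl* as strongly as these. The strongest r was with *Tef* (r = -0.95, permutation p = 1.39e-04, adjusted p = 0.00625, rho -0.94, permutation p = 2.78e-04), which stood at -0.89 without the 2 libraries farthest from the median of *Arntl* (permutation p = 0.00278) and at -0.88 without KO replicates 4 and 5 (permutation p = 0.00833). *Nr1d2* gave r = -0.94 (adjusted p = 0.00893, rho -0.87, permutation p = 0.00458, -0.84 without the 2 farthest, permutation p = 0.0250). *Per3* gave r = -0.90 (adjusted p = 0.00893, rho -0.78, permutation p = 0.0204, -0.80 without the 2 farthest, permutation p = 0.0319). *Per1* gave r = -0.81 (adjusted p = 0.0206, rho -0.87, permutation p = 0.00465) and -0.76 without the 2 farthest (permutation p = 0.0569). *Dbp* gave r = -0.79 (adjusted p = 0.0359, rho -0.77, permutation p = 0.0214) and -0.69 without the 2 farthest (permutation p = 0.108). With 2 fewer libraries *Per1* and *Dbp* were no longer past an unadjusted p of 0.05. *Per2* gave r = -0.77 (adjusted p = 0.0419, rho -0.89, permutation p = 0.00361) and -0.97 without the 2 farthest (permutation p = 0.00278). Without KO replicates 4 and 5 the r with *Arntl* was -0.93 for *Per2* (permutation p = 0.00278), -0.83 for *Nr1d2* (permutation p = 0.0278), -0.78 for *Per3* (permutation p = 0.0361), -0.69 for *Per1* (permutation p = 0.0903) and -0.49 for *Dbp* (permutation p = 0.279). For *Per1* and *Dbp* the sign was kept but an unadjusted p of 0.05 was missed, with fewer libraries in the test. *Nr1d1*, whose product represses *Arntl*, missed the threshold (r = -0.54, adjusted p = 0.188, rho -0.42, permutation p = 0.245), and without KO replicates 4 and 5 its r with *Arntl* was 0.01.

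**Figure D3:**
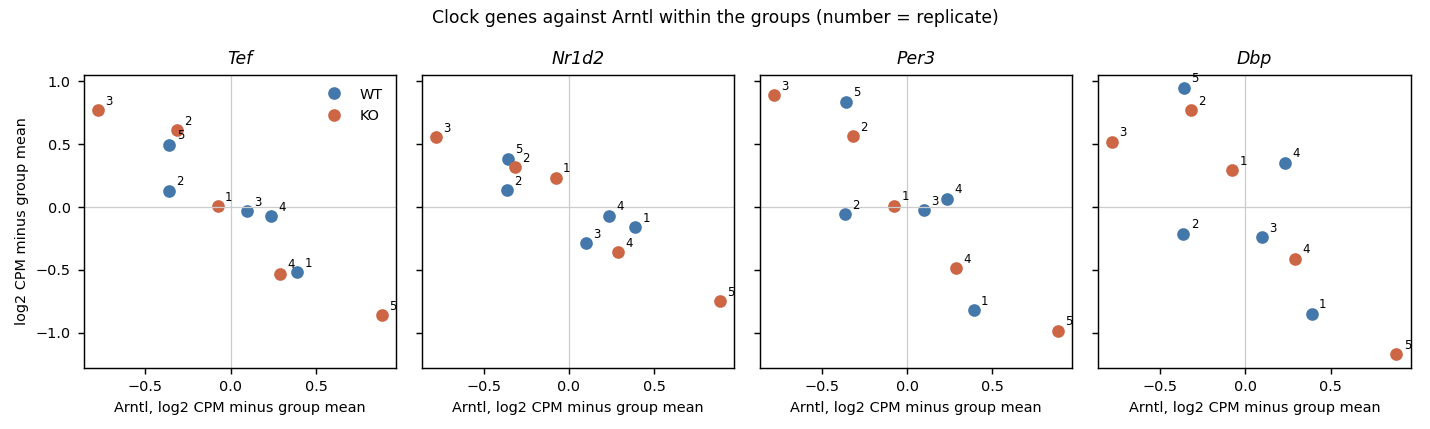
Log2 CPM of *Tef*, *Nr1d2*, *Per3* and *Dbp* against that of *Arntl*, each minus its group mean, in the 5 WT (blue) and 5 KO (orange) libraries, with replicate numbers. Points run from upper left to lower right in both groups, with KO replicate 3 at the left end, KO replicate 5 at the right end and r from -0.95 (*Tef*) to -0.79 (*Dbp*).

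*Cry1* and *Clock* stood apart from both sets. *Cry1* was negative with all 7 of the genes, with r between -0.73 and -0.09, and passed only with *Nr1d1* (r = -0.73, adjusted p = 0.0359, rho -0.61, permutation p = 0.0781, -0.65 without the 2 farthest, permutation p = 0.138), but without KO replicates 4 and 5 its r with *Nr1d1* was -0.42 (permutation p = 0.194) and only 2 of the 7 kept their sign. *Cry1* and *Arntl* had an r of 0.48 (adjusted p = 0.344, rho 0.15, permutation p = 0.713), which turned to -0.57 without these libraries. *Clock* was positive with all 7, with r from 0.12 to 0.60, none past the threshold, and 2 of the 7 kept their sign without KO replicates 4 and 5. *Clock* and *Arntl*, the genes of the 2 partners, had an r of -0.55 (adjusted p = 0.188, rho -0.58, permutation p = 0.107, r = -0.23 without KO replicates 4 and 5). Over all 45 pairs, 0 passed without KO replicates 4 and 5, where the smallest p that the relabellings can give was 0.00139, and 3 passed without the 2 farthest libraries. Single libraries moved this count as well, to 4 without KO replicate 3 and to 11 without KO replicate 1 or KO replicate 4.

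**Figure D4:**
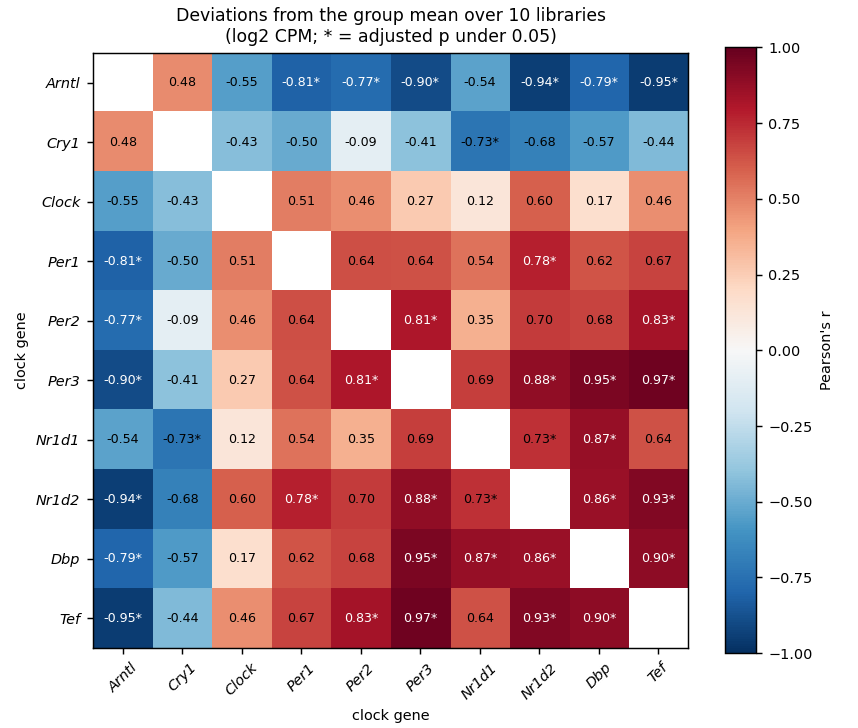
Pearson's r between the 10 clock genes over 10 libraries, from log2 CPM minus the group mean, red for positive and blue for negative, with a star where the adjusted p of the permutation test is under 0.05. The block from *Per1* to *Tef*, put together after the values were seen, is red throughout (0.35 to 0.97) and the *Arntl* row is blue against it (-0.95 to -0.54).

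Other genes of the loop were taken from a list of 16, of which 15 had enough counts. In KO libraries 2 were called higher (16% of all tested genes were) and 2 lower (13.9% of all), and the median log2 fold change was 0.18. Such a share of calls is close to the 29.9% called in either direction over all genes and is no result about the list. *Hlf*, the remaining member of the PAR bZIP family beside *Dbp* and *Tef*, had 10.95, 23.6, 14.9, 19.5 and 25.5 CPM in WT replicates 1 to 5 and 8.51, 11.2, 7.93, 6.29 and 3.57 CPM in KO replicates 1 to 5. It fell by 1.33 on the log2 scale (SE 0.30, adjusted p = 0.00899, edgeR), with WT replicate 1 just below KO replicate 2, and remained called without any single library and without KO replicates 4 and 5 (-1.03, adjusted p = 0.0275), but not with the epithelial score (-0.94, 0.0873) or the smooth muscle score (-1.07, 0.456) in the model. *Ciart*, a repressor of BMAL1 and CLOCK, fell by 1.27 (SE 0.41, adjusted p = 0.0368, edgeR), from 3.81 ± 2.01 to 1.57 ± 0.756 CPM (SD, n = 5 each). Its call was lost without WT replicate 2 (0.0744) or 5 (0.0882) or without KO replicate 1 (0.0605), 4 (0.0758) or 5 (0.0673), and without KO replicates 4 and 5 it was -0.94 (0.149). *Nfil3*, which competes with the PAR bZIP factors for D-boxes and represses through them, had 5.19, 3.19, 5.48, 5.28 and 4.76 CPM in WT replicates 1 to 5 and 6.99, 10.4, 6.15, 7.67 and 22.5 CPM in KO replicates 1 to 5. All KO libraries lay above all WT libraries, and KO replicate 5 was the highest by far. *Nfil3* rose by 1.17 (SE 0.35, adjusted p = 0.0277, edgeR), a call lost without WT replicate 1 (0.0545), 2 (0.0695), 3 (0.0503) or 5 (0.0526). Without KO replicate 5 its log2 fold change was 0.70 (0.0304), and without KO replicates 4 and 5 it was 0.71 (0.0498). With the epithelial score *Nfil3* was at 0.54 (0.285) and *Ciart* at -0.95 (0.201), and with the smooth muscle score at 1.42 (0.419) and -1.40 (0.492). *Fbxl21*, which acts on the stability of CRY proteins, rose by 1.09 (SE 0.25, adjusted p = 0.00862, edgeR), from 1.81 ± 0.411 to 3.85 ± 1.11 CPM (SD, n = 5 each), and was at 1.21 (0.0144) without KO replicates 4 and 5, at 1.27 (0.0152) with the epithelial score and at 0.87 (0.468) with the smooth muscle score. *Npas2*, which can replace CLOCK, had 24.2 ± 4.22 and 30.5 ± 6.25 CPM (log2 fold change 0.34, adjusted p = 0.134, edgeR). With scaling to library size only it passed, as did *Csnk1e*, and *Ciart* did not.

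**Figure D5:**
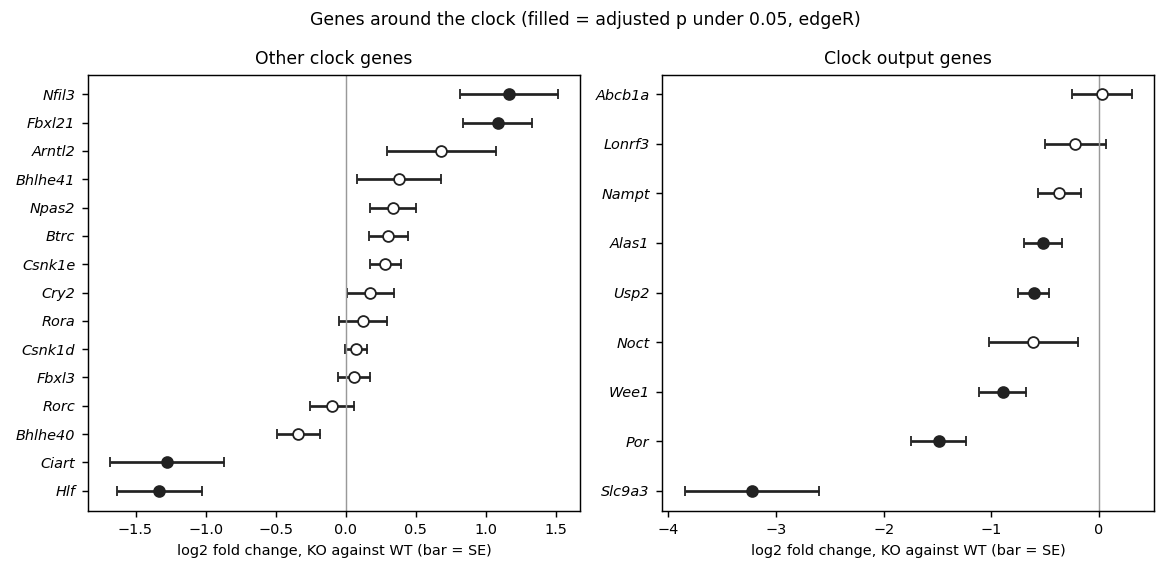
Log2 fold change, KO against WT, with its standard error, of 15 other genes of the clock (left) and of 9 output genes (right), filled where the adjusted p of edgeR is under 0.05. *Hlf* (-1.33) and *Ciart* (-1.27) are lower, *Nfil3* (1.17) and *Fbxl21* (1.09) are higher, and 5 of the output genes are lower.

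Of 9 genes known to be driven by the clock, 5 were called lower and 0 higher, against 13.9% and 16% of all tested genes, with a median log2 fold change of -0.61. *Wee1*, a kinase that holds back mitosis, fell by 0.89 (SE 0.22, adjusted p = 0.0120, edgeR), from 18.8 ± 0.980 to 10.2 ± 3.19 CPM (SD, n = 5 each). *Usp2*, a deubiquitinase, fell by 0.61 (SE 0.14, adjusted p = 0.00982), and *Por*, the electron donor of cytochromes P450, by 1.49 (SE 0.26, adjusted p = 0.00243). *Alas1*, the first enzyme of heme synthesis, fell by 0.52 (SE 0.18, adjusted p = 0.0463), a call lost when any 1 of 7 libraries was left out (adjusted p from 0.0699 to 0.106, kept without WT replicate 4, KO replicate 1 or KO replicate 5). The call of *Alas1* was also lost with scaling to library size only (0.058) and without a filter (0.057). *Slc9a3*, the sodium and proton exchanger of the brush border, fell by 3.22 (SE 0.63, adjusted p = 0.00427), from 97.5 ± 25.9 to 10.5 ± 9.57 CPM. KO libraries lay below all WT libraries for 4 of these genes, against 10.8% of all tested genes, *Alas1* being the exception. These 4 stayed called without KO replicates 4 and 5, with log2 fold changes of -0.64 for *Wee1* (0.00320), -0.66 for *Usp2* (0.0233), -1.27 for *Por* (0.0145) and -2.66 for *Slc9a3* (0.00495), while *Alas1* was at -0.59 (0.0575). None of the 5 was called with the smooth muscle score, under which 0.0769% of all genes were, and the values were -0.14 for *Wee1* (0.896), -0.47 for *Usp2* (0.511), -1.02 for *Por* (0.396), -0.02 for *Alas1* (0.987) and -0.49 for *Slc9a3* (0.777). The epithelial score ended the call of *Usp2* only (-0.55, 0.0666).

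Signals that can shift the clock were read from 3 further lists, each with 1 gene called and so with a smaller share of calls than the 29.9% of all tested genes. Of 6 genes induced by glucocorticoids 1 was called, *Fkbp5*, a cochaperone of the receptor, which rose by 1.05 (SE 0.34, adjusted p = 0.0404, edgeR). Its level was 14.7, 45.4, 15.9, 17.4 and 17.0 CPM in WT replicates 1 to 5 and 22.8, 56.2, 52.9, 51.3 and 44.3 CPM in KO replicates 1 to 5. WT replicate 2, which also had the highest *Per1* of all libraries, lay with the KO libraries, and the call was lost when any library other than WT replicate 2 or KO replicate 1 was left out (adjusted p from 0.0581 to 0.0933). *Fkbp5* was at 0.998 (0.113) without KO replicates 4 and 5. Of 9 immediate early genes 1 was called, *Fos*, which fell by 0.85 (SE 0.24, adjusted p = 0.0209) and missed the threshold without WT replicate 1 (0.0508). It was at -0.61 (0.0494) without KO replicates 4 and 5. Of 8 genes that respond to temperature 1 was called, *Hspa1a*, with 1.63 ± 0.440 and 2.85 ± 0.682 CPM (log2 fold change 0.81, SE 0.24, adjusted p = 0.0295). *Hspa1b* (0.80, adjusted p = 0.101) is a near-identical copy, and how reads that match both were counted is not known, so both values are uncertain. *Hspa1a* was lost without WT replicate 3 (0.0708), 4 (0.0525) or 5 (0.0671) or KO replicate 4 (0.0606), and without KO replicates 4 and 5 it was at 0.63 (0.102). It was lost too without a filter (0.0547) and with a replicate block (0.0522). None of these 3 genes was among the 0.0769% of all genes called with the smooth muscle score (*Fkbp5* 1.37, 0.436, *Fos* -0.58, 0.634, *Hspa1a* 0.52, 0.674), and with the epithelial score *Fos* (-0.84, 0.0810) and *Hspa1a* (0.90, 0.0522) were not. The medians of these lists were 0.19, 0.23 and 0.22.

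The genes whose within-group pattern was most like that of *Arntl* were *Aph1a* (r = 0.94), *Antxr2* (0.94), *Sema4b* (0.93), *Rnf5* (0.93) and *H2-T3* (0.92), over 10 libraries and among 11512 genes with a mean of at least 5 CPM. Most like *Dbp* were *Tcf7* (0.96), *Bbx* (0.93), *A430033K04Rik* (0.93), *Emid1* (0.93) and *Atf7* (0.93). When the clock genes were ranked with the rest (11548 genes), *Per3* was 2nd, *Hlf* 13th and *Tef* 17th in likeness to *Dbp*, and *Npas2* 6th from the opposite end (-0.93). Lower in likeness to *Dbp* were *Nr1d1* (38th), *Nr1d2* (48th), *Per2* (497th), *Per1* (745th) and *Clock* (4206th). Toward *Arntl*, *Tef* was 3rd and *Nr1d2* 6th from the opposite end, while *Npas2* (0.76) and *Nfil3* (0.77), which are known to run with *Arntl* or against *Dbp*, stood 250th and 227th from the top. From the opposite end toward *Arntl*, *Per3* was 22nd, *Per1* 136th, *Dbp* 164th, *Per2* 216th, *Clock* 1221st and *Nr1d1* 1315th. These ranks share libraries and depth and are given as a description.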

How the data were processed

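RNA was measured by RNA-seq in intestine, proximal by the labels, of 5 WT and 5 KO mice. For each library the authors deposited counts per Ensembl gene ID, in whole numbers and not normalized. Libraries were made with a SMARTER mRNA-Seq kit per the labels, and the submitters' processing notes name FastQC 0.11.9, Trimmomatic, HISAT2 2.0.4, SAMtools 1.3.1, DESeq2 1.14.1 and GRCm38. The read counter, annotation and strand setting were not given in the sources used here. Reads of genes that overlap on opposite strands may belong to either gene.

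GENCODE M21 gave symbols for 34490 of 35275 IDs. Groups were compared with edgeR 4.0.16 (R 4.3.3; TMM, filterByExpr with minimum count 10 and minimum total 15, quasi-likelihood test, Benjamini-Hochberg over 15610 genes, threshold 0.05), with exact two-sided permutation tests for single genes. Log2 CPM had a prior count of 2. Pairs of genes were correlated after subtraction of group means, with all 14400 relabellings within groups, whose smallest p is 6.944e-05. The scripts were tested on simulated data. Alternatives were RLE or library-size scaling, DESeq2 1.42.0, other filters, robust estimation, a replicate block, tissue scores as covariates and leaving out libraries.

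The 10 genes and all lists were chosen with earlier results of these data known. Named genes are the 10, at most 6 called genes of each list by size, the 5 nearest to *Arntl* and to *Dbp*, and *Slc39a14*, *Fabp6*, *Myh11* and *Epcam*. *Gata4*, *Thra*, *Sphk2*, *Gm17597*, *Hspa1b*, *Csnk1e* and *Npas2* were added after their values were seen. At these depths a clock gene had between 1194 and 14035 counts over the 5 libraries of a group, in WT libraries lowest for *Cry1* and highest for *Nr1d1*, so that counting error is relatively largest for *Cry1*.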

Additional observations from a re-analysis of the deposited data

How the results depend on the processing

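The fit was repeated in 20 other settings. The direction of 9 of the 10 clock genes was kept in all of them, and *Clock* turned to a log2 fold change of 0.0768 with the smooth muscle score as covariate. The number of clock genes called higher was 0, against 1 with scaling to library size only and 1 in DESeq2, and from 0 to 1 when single libraries were left out. The number called lower was 4, against 1 with library size only, 2 with a replicate block, 0 with the smooth muscle score, 1 with the epithelial score and 1 without KO replicates 4 and 5, and from 1 to 6 without single libraries. Over all genes 4660 were called, 12 with the smooth muscle score and 3207 to 5507 without single libraries. KO and WT libraries were separate in that score. Of the other clock genes 4 were called, 2 with a replicate block, 0 with the smooth muscle score, 1 with the epithelial score, and 2 to 4 without single libraries. Of the 45 pairs 18 passed, 3 without the 2 farthest libraries, 0 without KO replicates 4 and 5, and 4 to 20 without single libraries, where fewer libraries also raise the smallest possible p. The cause of the other changes was not tested. Replicate numbers showed no pairing of the libraries. The deviations of same-numbered libraries correlated at between -0.17 and 0.18, and 1 of 5 WT libraries correlated best with its own number. A weak pairing could be missed this way, so whether the replicate block reflects a design is not known. Under this block *Clock*, *Nr1d1*, *Hlf* and *Fbxl21* stayed called, and *Nr1d2*, *Dbp*, *Ciart* and *Nfil3* did not.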
